A study of Homo sapiens with 12 samples.

Results

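The ETS factors described here are the transcription factor genes ETV1, ETV4, ETV5, ETS1, ETS2, ELK1, ELK3, ERF, ELF1 and GABPA, taken by symbol. All 10 were found among the 26499 gene symbols of the count files, and all 10 were among the 15506 genes that passed the filter on low counts. The RNA came from 2 established lines of human melanoma, A375 and SKMel28, each as cells resistant to vemurafenib and as their sensitive counterpart, with 3 libraries in each of the 4 groups. Vemurafenib inhibits the mutant BRAF kinase, and the series concerns IGF1 signalling in melanoma that resists BRAF and MEK inhibitors. All cells were grown in medium with 10% serum. Vemurafenib at 1 µmol/L was present only for the resistant cells, as far as the labels say, so resistance and presence of the drug cannot be told apart. Each line is a single model. The labels state neither whether its resistant cells are a clone nor whether libraries of a group are separate cultures, and p-values here reflect the spread among libraries, which may be technical.

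ETS factors share the ETS domain, which binds DNA at a GGAA core. ERK, the last kinase of the pathway that BRAF drives, acts on them at several levels: it phosphorylates ETS1, ETS2, ELK1 and ELK3, drives the repressor ERF out of the nucleus, and relieves repression of ETV1, ETV4 and ETV5 by the DNA-binding protein CIC. These ETV genes form the PEA3 group and are used in melanoma as a transcript readout of ERK activity. ELK1 and ELK3 are ternary complex factors that bind beside SRF at immediate early genes, ELF1 belongs to another branch of the family, and GABPA is the DNA-binding subunit of the GABP complex.

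Each library held 28496518 to 37721363 reads counted in genes, and 1 CPM (a read count scaled to a fixed library total) stood for 29.8 to 39.7 reads. The members had between 552 and 10146 reads in each library. In bulk RNA, fewer cells of a type and less RNA per cell cannot be told apart. The summed level of 7 melanocyte-lineage markers was 7050 to 7490 CPM in sensitive and 8880 to 9040 CPM in resistant SKMel28. In that line MITF, MLANA, PMEL (4540 to 6110 CPM) and TYR were higher in resistant cells. SOX10 (722 to 569 CPM), S100B (465 to 185 CPM) and DCT (266 to 218 CPM) were lower. In A375 the sum was 373 to 383 CPM in sensitive and 30.7 to 33.4 CPM in resistant libraries, a fall mostly through SOX10 (325 to 0.138 CPM). MLANA, PMEL, TYR and DCT were all under 1 CPM in both A375 groups. Leukocyte markers (4 genes) summed to at most 0.518 CPM in any library, and CD3E had no read. Endothelial markers (3 genes) summed to 0.732 to 1.68 CPM in sensitive and 2.38 to 3.05 CPM in resistant A375, and to 1.11 to 2 CPM and 1.2 to 1.57 CPM in SKMel28. The A375 rise was in PECAM1 (0.626 to 2.42 CPM), while CDH5 and VWF were lower. The sum of fibroblast markers (3 genes) was lower in the resistant libraries of both lines, at 7.08 to 7.74 CPM against 3.15 to 3.63 CPM in A375 and 24 to 25.5 CPM against 15.7 to 19.6 CPM in SKMel28. In SKMel28 the fall was mostly in LUM (22.7 to 14 CPM), while COL1A1 was higher (2.08 to 3.63 CPM). Epithelial markers (3 genes) were at 25 to 29 CPM in sensitive and 0.531 to 0.951 CPM in resistant A375, mostly through KRT14, and under 1 CPM in SKMel28. Measures of the libraries also moved with resistance. In SKMel28 the mitochondrial share of reads was 4.41% to 4.67% in sensitive and 6.82% to 7.13% in resistant libraries, reads placed at more than 1 site were 4% to 4.47% and 2.09% to 2.44%, and reads not assigned to a gene 17.1% to 19% and 15.1% to 15.6%. In A375 the mitochondrial share was 1.85% to 1.99% in sensitive and 2.11% to 2.27% in resistant libraries, and reads not assigned were 18.8% to 19.5% and 17.9% to 18.4%. The part of these markers and measures in the results below was not tested.

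The PEA3 genes are close relatives, which bears on whether reads can be assigned to the right gene. The in-frame coding stretch of 90 bases in which ETV4 and ETV5 were together most like ETV1 is shown 5′ to 3′. It is taken from the longest GENCODE protein-coding transcript of each gene, with the 19 positions that differ in any of them in capitals.
ETV1: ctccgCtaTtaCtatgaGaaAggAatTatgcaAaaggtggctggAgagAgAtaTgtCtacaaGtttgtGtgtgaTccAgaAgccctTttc
ETV4: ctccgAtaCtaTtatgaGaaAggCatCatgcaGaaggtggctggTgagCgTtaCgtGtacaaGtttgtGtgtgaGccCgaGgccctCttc
ETV5: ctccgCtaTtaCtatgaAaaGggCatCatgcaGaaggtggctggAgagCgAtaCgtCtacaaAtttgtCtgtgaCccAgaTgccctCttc
In this stretch ETV1 differed from ETV4 at 15 bases and from ETV5 at 12, and ETV4 differed from ETV5 at 13. The stretch was chosen without comparing ETV4 with ETV5, so that pair may be more alike elsewhere. Over the 45 pairs of members the longest run shared exactly by their transcripts was 33 bases, between ETV4 and ETV5, against reads of 150 bases. Identity of aligned coding sequence ranged from 55.2% to 70.6%, with ETV1 and ETV5 the most alike. Counting was unstranded by the deposited names, and exons overlapped those of another counted gene in 3 members: 68 bases of ETV4 with DHX8 on the other strand, 167 bases of ELF1 with WBP4 on the other strand, and 164 bases of ETV5 with DGKG on the same strand.

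In resistant A375, 5 of the 10 members rose and 3 fell, by edgeR's quasi-likelihood test with adjustment over all genes tested. Among all genes tested 51.3% were called, 25.0% as rises and 26.3% as falls. No member reached a 2-fold change there, which 10.5% of all genes did. The libraries of the groups did not overlap for 8 members, and for 57.9% of all genes. In resistant SKMel28, 1 member rose and 6 fell, where 70.0% of all genes were called, 34.2% as rises and 35.8% as falls, and the 2 changes past 2-fold, of ETV4 and ELK1, compare with 20.8% of all genes. The libraries did not overlap for 6 members, and for 71.1% of all genes. The members' median log2 fold change was 0.12 in A375 and -0.13 in SKMel28, against 0 and -0.01 over all genes tested, and the median size of change was 0.21 and 0.36, against 0.24 and 0.46. The members' median size of change was thus below that of all genes in both lines. The count called was 8 of 10 in A375 and 7 of 10 in SKMel28, the latter at the background.

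**Figure D1:**
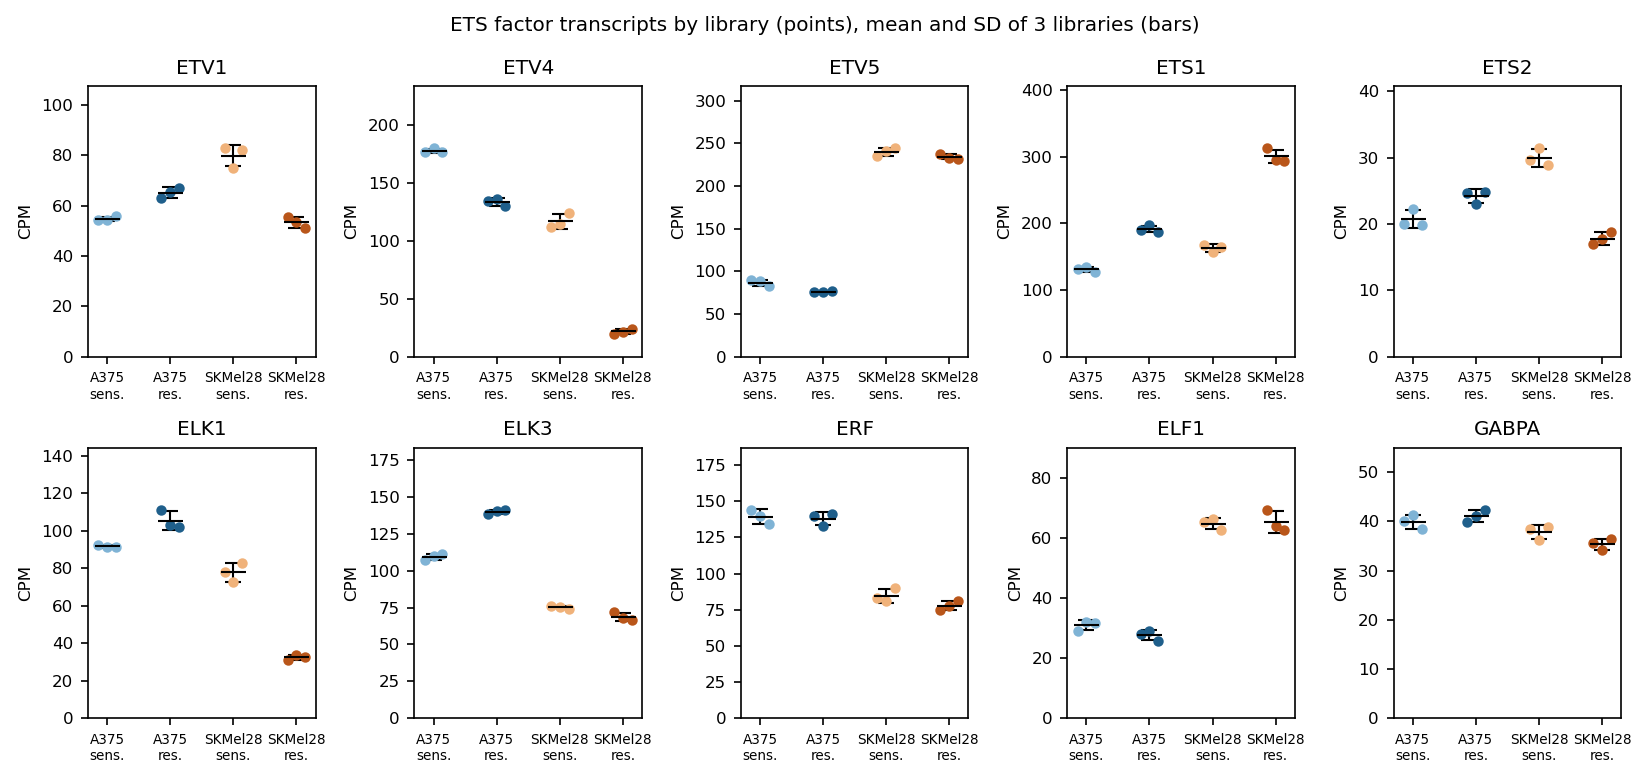
Transcript level (CPM, linear axis from 0) of the 10 ETS factors in each library, with the mean and SD of 3 libraries per group. ETV4 and ELK1 stand lowest in resistant SKMel28, as by mean do ETV1, ETS2, ELK3, ERF and GABPA. ETS1 stands higher in the resistant group of both lines, and ETV5 and ELF1 separate the lines.

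Between the lines the members did not move alike. Called in both lines were 6 members, of which ETS1 rose in both and ETV4 fell in both, while ETV1, ETS2, ELK1 and ELK3 rose in A375 and fell in SKMel28. Of all genes tested 18.5% were called in the same direction in both lines and 20.1% in opposite directions. A test of the difference itself, the A375 change minus the SKMel28 change, was passed by 7 members, 5 with a positive and 2 with a negative difference, where 63.8% of all genes passed (31.4% positive and 32.4% negative). Only ETV4 and ELK1 differed by 2-fold or more, as did 23.5% of all genes.

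**Figure D2:**
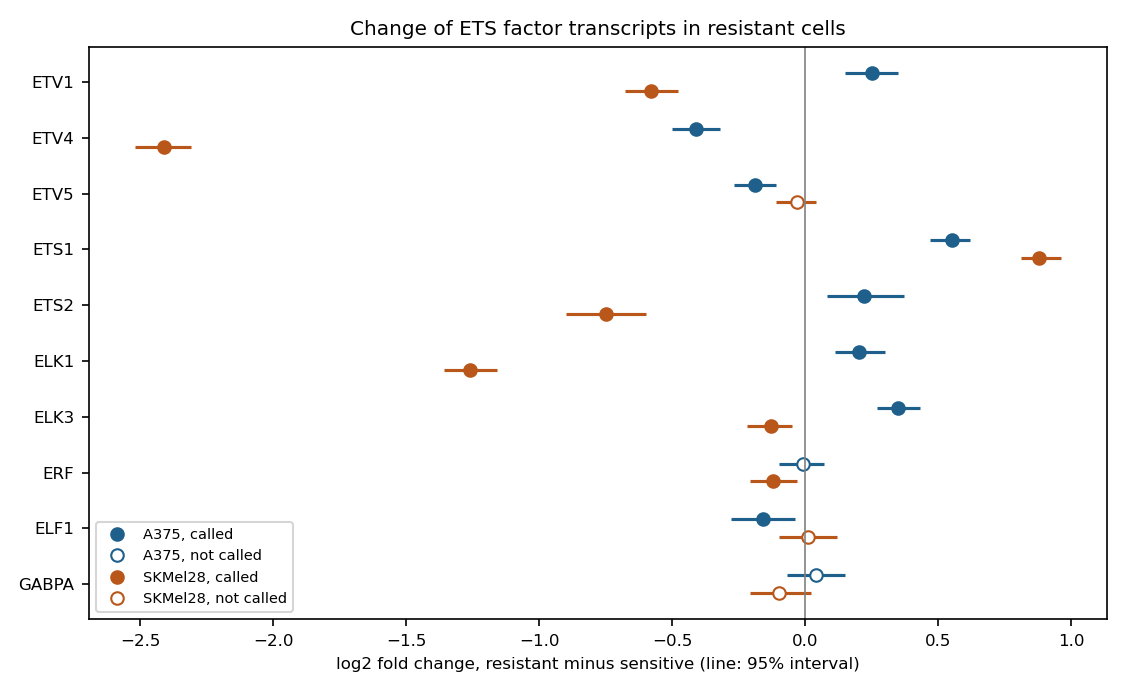
Log2 fold change, resistant minus sensitive, of each ETS factor in A375 and SKMel28, with 95% intervals from the edgeR fit; filled points passed an adjusted p of 0.05. ETV1, ETS2, ELK1 and ELK3 lie on opposite sides of 0 in the 2 lines, ETS1 lies above 0 and ETV4 below 0 in both.

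ETV4 (chromosome 17, 43527844 to 43579620, minus strand, GRCh38) had the largest change of any member. In SKMel28 its level was 112, 115 and 124 CPM in the sensitive libraries and 19.9, 21.8 and 24.1 CPM in the resistant ones. The resistant group lay far below the sensitive one, 5.33-fold lower (log2 fold change -2.41 ± 0.05 SE, edgeR adjusted p = 2.15e-35), and 92.1% of all genes tested had a smaller change in either direction. In A375 its level was 177, 180 and 177 CPM in sensitive and 135, 136 and 130 CPM in resistant libraries. The groups did not overlap there either, and the fall was 1.33-fold (-0.41 ± 0.04, edgeR adjusted p = 5.93e-11). The falls differed between lines by 2.0 on the log2 scale (± 0.07 SE, edgeR adjusted p = 1.14e-27).

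ETV5 (chromosome 3, 186046308 to 186110318, minus strand), a relative of ETV4 that is likewise transcribed under ERK control, was not called in SKMel28. Its level was 235, 241 and 244 CPM in sensitive and 238, 233 and 232 CPM in resistant SKMel28, and the libraries of the groups overlapped. The log2 fold change was -0.03 with a 95% interval from -0.11 to 0.04 (edgeR adjusted p = 0.408), so a fall of the size seen for ETV4 lies outside the interval. In A375 ETV5 went from 89.4, 88.4 and 82.6 CPM to 75.4, 75.5 and 77.4 CPM, without overlap, a fall of 1.14-fold (-0.19 ± 0.04, edgeR adjusted p = 6.04e-05). The difference between lines was small (-0.16 ± 0.05, edgeR adjusted p = 0.00915). It was lost without resistant A375 replicate 2 (-0.13, edgeR adjusted p = 0.0566) and with scaling by library size alone (-0.09, edgeR adjusted p = 0.121).

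ETV1 (chromosome 7, 13891228 to 13991425, minus strand), which is known to act with MITF in melanoma cells, went in opposite directions. It was at 54.2, 54.5 and 55.8 CPM in sensitive and 62.9, 65.4 and 67.1 CPM in resistant A375, a rise of 1.19-fold with no overlap (0.25 ± 0.05, edgeR adjusted p = 3.44e-05). In SKMel28 it went from 82.7, 75 and 82 CPM to 55.6, 53.5 and 51.2 CPM, a fall of 1.5-fold with no overlap (-0.58 ± 0.05, edgeR adjusted p = 3.68e-14). The changes differed by 0.83 ± 0.07 (edgeR adjusted p = 3.91e-14).

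Levels of different genes can be set side by side only per length, here as CPM per kilobase of the longest protein-coding transcript. On that scale the summed level of the PEA3 group was 102 ± 1.19 in sensitive and 83.3 ± 0.799 in resistant A375, and 118 ± 3.72 in sensitive and 74.0 ± 0.446 in resistant SKMel28 (SD, n = 3). ETV4 supplied 71.5% ± 0.482 of it in sensitive and 66.2% ± 0.951 in resistant A375. In SKMel28 the share of ETV4 was 40.7% ± 0.880 in sensitive and 12.2% ± 1.20 in resistant cells. ETV5 supplied 49.3% ± 0.845 of the SKMel28 sum in sensitive and 77.1% ± 0.789 in resistant cells, with ETV1 at 10.0% ± 0.552 and 10.7% ± 0.418. On this scale the group was thus mostly ETV5 transcript in resistant SKMel28, and mostly ETV4 in both A375 groups. The shares depend on the lengths taken, 6.74, 2.43 and 4.11 kilobases for ETV1, ETV4 and ETV5. Which transcripts of each gene were expressed was not measured. Without scaling by length, resistant A375 held 134 CPM of ETV4, 76.1 CPM of ETV5 and 65.1 CPM of ETV1.

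**Figure D3:**
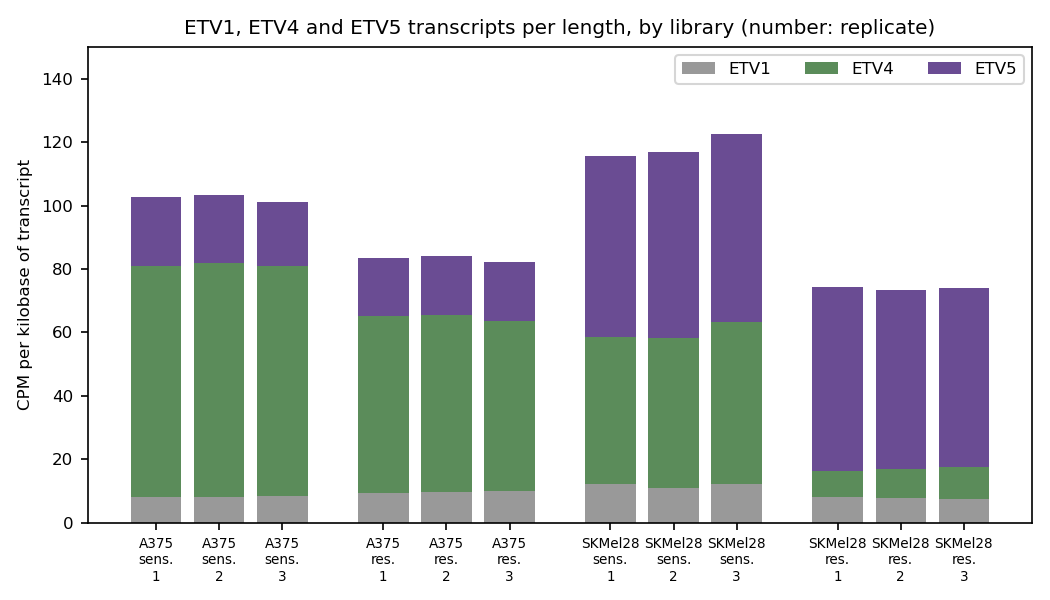
CPM per kilobase of transcript of ETV1, ETV4 and ETV5, stacked, for each of the 12 libraries (replicate number under each bar). The ETV4 part is small only in the 3 resistant SKMel28 libraries, where its share was 11% to 13.4%.

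Promoter sequence from RefSeq (GRCh38.p14) matched 7 of the 10 members; ETV4, ETV5 and ETS1 had no entry. Windows of 300 bases, 250 before and 50 after each start, were searched on both strands for CCGGAA, an ETS-type site, for TGAATGAA and TGAATGGA, the octamers that CIC binds, for the AP-1 type TGANTCA and for the CArG box of SRF. Of 35116 windows, 17.2% held CCGGAA, 1.65% TGAATGAA, 1.03% TGAATGGA, 7.71% TGANTCA and 1.29% the CArG box. Among the windows of the 7 members, CCGGAA was found in 3 of the 6 windows of ETV1 and in that of GABPA, and the only CIC octamer was TGAATGGA in ETV1. The ETV1 windows chr7:13990653-13990952 and chr7:13990657-13990956 overlap and hold the same CCGGAA site. The remaining ETV1 window with CCGGAA, chr7:13991376-13991675, holds a different CCGGAA site and the TGAATGGA. The 250 bases before the start in this window (chr7:13991426-13991675, minus strand) are shown 5′ to 3′ because they hold both motifs, in capitals. CCGGAA begins at base 115 and TGAATGGA at base 126.
ETV1: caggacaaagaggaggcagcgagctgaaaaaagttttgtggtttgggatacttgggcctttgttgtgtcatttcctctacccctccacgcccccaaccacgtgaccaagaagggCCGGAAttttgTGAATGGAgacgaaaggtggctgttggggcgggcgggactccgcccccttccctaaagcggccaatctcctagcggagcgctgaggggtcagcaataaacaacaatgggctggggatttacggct
These matches describe letters and not bound sites.

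Genes that act on the PEA3 factors were taken as a list of 9: CIC with its partners ATXN1 and ATXN1L, which hold PEA3 genes repressed, and the ligase of COP1, DET1, DDB1, CUL4A, CUL4B and RBX1, which marks PEA3 proteins for destruction. In A375, CUL4B rose (97.9 to 173 CPM, 0.82 ± 0.04, edgeR adjusted p = 5.83e-22), CUL4A fell (207 to 165 CPM, -0.33 ± 0.04, edgeR adjusted p = 2.78e-10) and the other 7 were not called (list median 0.07, all genes 0). In SKMel28, 4 rose and 3 fell (list median -0.05, all genes -0.01). CIC rose there from 91.3 ± 2.89 to 126 ± 4.44 CPM (SD, n = 3; 0.46 ± 0.04 SE, edgeR adjusted p = 2.76e-13). In A375 CIC was at 111 and 112 CPM (0.01 ± 0.04, edgeR adjusted p = 0.81), and the CIC changes differed between lines (-0.45 ± 0.06, edgeR adjusted p = 7.29e-09). Its partner ATXN1L fell in SKMel28 from 64.4 to 52.9 CPM (-0.28 ± 0.05). The ligase scaffold gene DDB1 fell there from 244 to 171 CPM (-0.52 ± 0.04), DET1 from 12.4 to 7.09 CPM (-0.81 ± 0.11), and COP1, listed in the files under its older symbol RFWD2, rose from 33.9 to 38.8 CPM (0.19 ± 0.06, edgeR adjusted p = 0.0025).

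ETS1 (chromosome 11, 128458761 to 128587558, minus strand) was the only member that rose in both lines. It is a founding member of the family whose transactivation is raised by ERK. In A375 it was at 131, 135 and 127 CPM in sensitive and 190, 197 and 187 CPM in resistant libraries, 1.46-fold higher (0.55 ± 0.04, edgeR adjusted p = 1.45e-16). In SKMel28 it was at 168, 157 and 164 CPM in sensitive and 312, 295 and 294 CPM in resistant libraries, 1.84-fold higher (0.88 ± 0.04, edgeR adjusted p = 1.65e-24). Every resistant library exceeded every sensitive library of its line. The rise was larger in SKMel28, the difference being -0.34 ± 0.05 (edgeR adjusted p = 3.68e-07).

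ETS2 (chromosome 21, 38805307 to 38824955, plus strand), the nearest relative of ETS1, had low levels and changed in opposite directions. It went from 20, 22.3 and 19.9 CPM to 24.7, 23.1 and 24.9 CPM in A375 (0.22 ± 0.07, edgeR adjusted p = 0.00781). In SKMel28 it went from 29.6, 31.4 and 28.9 CPM to 17, 17.7 and 18.8 CPM, 1.68-fold lower (-0.75 ± 0.07, edgeR adjusted p = 1.78e-12). Neither pair of groups overlapped, and the changes differed by 0.97 ± 0.10 (edgeR adjusted p = 2.40e-11).

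Reported targets of ETS1 and PEA3 factors were a list of 12 genes, mostly of proteolysis and the matrix, of which 11 were tested; other factors act on these genes too. In A375, 5 rose and 4 fell (list median 0.10, all genes 0), where 25.0% of all genes were called as rises and 26.3% as falls. The strongest call was the fall of TNC, from 379 to 124 CPM (-1.61 ± 0.04, edgeR adjusted p = 9.54e-28), and the matrix gene SPP1 fell from 6.26 to 2.78 CPM (-1.17 ± 0.09). The collagenase gene MMP1 rose from 11.8 to 41.3 CPM (1.80 ± 0.07, edgeR adjusted p = 2.05e-24). PLAUR rose from 66.8 to 105 CPM (0.65 ± 0.05), and the urokinase gene PLAU from 2.49 to 6.85 CPM (1.46 ± 0.19, edgeR adjusted p = 2.10e-08). In SKMel28, 9 fell and 1, VIM, rose (list median -2.88, all genes -0.01), where 35.8% of all genes were called as falls and 34.2% as rises. MMP1 fell from 99.0 to 0.866 CPM (-6.82 ± 0.11, edgeR adjusted p = 2.84e-40), PTGS2, the inducible cyclooxygenase gene, from 21.3 to 1.66 CPM (-3.69 ± 0.16) and ICAM1 from 308 to 148 CPM (-1.06 ± 0.04). TNC fell from 1510 to 77.7 CPM (-4.28 ± 0.05, edgeR adjusted p = 1.43e-40) and PLAUR from 69.9 to 2.51 CPM (-4.80 ± 0.07, edgeR adjusted p = 1.35e-40). The 4 genes that fell in A375, TNC, MMP3, PTGS2 and SPP1, thus fell in both lines. The MMP1 changes differed between lines by 8.62 ± 0.13 (edgeR adjusted p = 3.09e-40).

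ELK1 (chromosome X, 47635521 to 47650604, minus strand) had the second largest fall in SKMel28. It was at 78.0, 72.4 and 82.7 CPM in sensitive and 31.1, 33.8 and 32.5 CPM in resistant SKMel28, 2.40-fold lower without overlap (-1.26 ± 0.05, edgeR adjusted p = 5.78e-25). The 90 tested genes within 10 Mb of it with a mean of at least 2 CPM had a median of -0.83 in the same comparison (quartiles -1.13 and -0.62), and 14.4% of them lay lower than ELK1. The part of the region in the fall of ELK1 was not tested. In A375, ELK1 rose from 92.5, 91.3 and 91.2 CPM to 111, 103 and 102 CPM without overlap (0.20 ± 0.05, edgeR adjusted p = 2.70e-04), where its neighbours had a median of 0.03. The changes differed by 1.46 ± 0.07 (edgeR adjusted p = 2.21e-22).

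ELK3 (chromosome 12, 96194382 to 96269835, plus strand), the other ternary complex factor, can repress SRF targets until ERK phosphorylates it. In A375 it went from 107, 110 and 111 CPM to 138, 140 and 141 CPM, 1.28-fold higher (0.35 ± 0.04, edgeR adjusted p = 2.75e-10). In SKMel28 it went from 75.9, 75.4 and 74.3 CPM to 71.7, 67.7 and 66.5 CPM, 1.10-fold lower and without overlap (-0.13 ± 0.04, edgeR adjusted p = 0.00495). The changes differed by 0.49 ± 0.06 (edgeR adjusted p = 7.33e-10). The partner SRF was at 70.9 and 73.8 CPM in sensitive and resistant A375 and at 48.8 and 48.9 CPM in SKMel28, and passed the test in neither (0.06 ± 0.05 and 0 ± 0.05). MRTFA, the actin-regulated SRF coactivator listed as MKL1, rose in both lines (0.45 ± 0.07 and 0.18 ± 0.06), and MRTFB, listed as MKL2, rose in SKMel28 (0.34 ± 0.07).

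Immediate early genes that ELK factors and SRF are known to switch on were a list of 9, all tested. Of these, EGR1 is also among the 20 genes of the ERK output described below. In A375, 6 rose and 1 fell (list median 0.41, all genes 0), where 25.0% of all genes were called as rises and 26.3% as falls. FOS rose from 2.52 to 5.46 CPM (1.14 ± 0.14, edgeR adjusted p = 1.82e-09) and the survival gene MCL1 from 423 to 490 CPM (0.21 ± 0.03). EGR3 fell, from 5.35 to 2.20 CPM (-1.28 ± 0.15). In SKMel28, 8 fell and SRF itself was not called (list median -0.91, all genes -0.01), where 35.8% of all genes were called as falls. FOSB fell from 8.21 to 0.823 CPM (-3.31 ± 0.17, edgeR adjusted p = 1.87e-21) and MCL1 from 255 to 145 CPM (-0.81 ± 0.03), and FOS from 31.8 to 26.0 CPM (-0.29 ± 0.08, edgeR adjusted p = 0.00224).

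None of ERF, ELF1 and GABPA passed the test of the difference between lines, and each was called in at most 1 line. ERF (chromosome 19, 42247572 to 42255157, minus strand), the ERK-regulated repressor, was at 144, 140 and 134 CPM in sensitive and 140, 133 and 141 CPM in resistant A375, with overlap (-0.01, 95% interval -0.10 to 0.07, edgeR adjusted p = 0.826). In SKMel28 it went from 83.5, 80.8 and 90.2 CPM to 75.1, 77.7 and 80.9 CPM, a called fall of 1.09-fold in which the libraries of the groups overlapped (-0.12 ± 0.04, edgeR adjusted p = 0.0144). That call ended without resistant SKMel28 replicate 1 (-0.10, edgeR adjusted p = 0.0738) or sensitive SKMel28 replicate 3 (-0.07, edgeR adjusted p = 0.183). The difference between lines did not pass the test (0.11, 95% interval -0.01 to 0.23, edgeR adjusted p = 0.119), but it did without resistant A375 replicate 2 (0.16, edgeR adjusted p = 0.0311).

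ELF1 (chromosome 13, 40932028 to 41061440, minus strand) was at 29.2, 32.2 and 31.9 CPM in sensitive and 28.2, 29.2 and 25.8 CPM in resistant A375, so that the nearest libraries of the groups were both at 29.2 CPM. The call of lower ELF1 (-0.16 ± 0.06, edgeR adjusted p = 0.0213) ended without resistant replicate 1 (-0.14, edgeR adjusted p = 0.0821), resistant replicate 3 (-0.08, edgeR adjusted p = 0.33), sensitive replicate 2 (-0.14, edgeR adjusted p = 0.0886) or sensitive replicate 3 (-0.14, edgeR adjusted p = 0.0772). It also ended by DESeq2 (-0.13, adjusted p = 0.086), with DESeq2 size factors (-0.13, edgeR adjusted p = 0.0737), with library size alone (-0.13, edgeR adjusted p = 0.0618) and with no filter (-0.13, edgeR adjusted p = 0.0669). The 67 genes around ELF1 had a median of -0.46 in A375, and 88.1% of them lay lower than ELF1; the part of the region was not tested. In SKMel28, ELF1 was at 65.3, 66.5 and 62.8 CPM and 69.4, 64.1 and 62.6 CPM (0.01, 95% interval -0.10 to 0.12, edgeR adjusted p = 0.887). The difference between lines was -0.17 (95% interval -0.34 to -0.01, edgeR adjusted p = 0.0585) and passed the test without sensitive A375 replicate 1 (-0.23, edgeR adjusted p = 0.0191), resistant SKMel28 replicate 3 (-0.21, edgeR adjusted p = 0.0299) or sensitive SKMel28 replicate 2 (-0.20, edgeR adjusted p = 0.0425).

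GABPA (chromosome 21, 25734570 to 25772460, plus strand) was at 40.1, 41.2 and 38.4 CPM in sensitive and 39.8, 41.1 and 42.3 CPM in resistant A375 (0.04, 95% interval -0.07 to 0.15, edgeR adjusted p = 0.566). In SKMel28 it was at 38.5, 36.3 and 38.8 CPM and 35.5, 34.1 and 36.4 CPM (-0.10, 95% interval -0.21 to 0.02, edgeR adjusted p = 0.119). The libraries overlapped in both lines. GABPB1, which encodes its activating partner, rose in SKMel28 from 20 to 27.8 CPM (0.48 ± 0.07, edgeR adjusted p = 1.53e-07), and in A375 it was at 26.1 and 27.2 CPM (0.06 ± 0.07, edgeR adjusted p = 0.518). Among 9 reported targets of GABP, 4 rose and 3 fell in A375 (list median -0.06, all genes 0) and 1 rose and 7 fell in SKMel28 (list median -0.29, all genes -0.01). TERT, whose promoter gains ETS sites by mutation in many melanomas, fell in A375 from 3.37 ± 0.321 to 1.0 ± 0.366 CPM (SD, n = 3; -1.74 ± 0.27 SE, edgeR adjusted p = 5.20e-07) and rose in SKMel28 from 0.411 ± 0.209 to 1.16 ± 0.214 CPM (1.49 ± 0.36, edgeR adjusted p = 2.99e-04). The respiratory chain genes COX4I1 and COX5B rose in A375 (0.15 ± 0.04 and 0.14 ± 0.05) and fell in SKMel28 (-0.80 ± 0.04 and -0.52 ± 0.04).

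Positions allow each member to be set beside the genes around it. In SKMel28 the genes within 10 Mb had medians of -0.31 around ETV1, -0.34 around ETS2 and -0.39 around GABPA, and these members were at -0.58, -0.75 and -0.10. Around ETV4 the median of 213 genes was -0.11 in SKMel28, where 3.76% of them lay lower than ETV4. Around ETS1 the median of 78 genes was 0.21 in A375 and -0.02 in SKMel28, and 82.1% and 91.0% of them lay lower than ETS1. The change of ETS1 in SKMel28 was 0.91 above its neighbours' median.

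**Figure D4:**
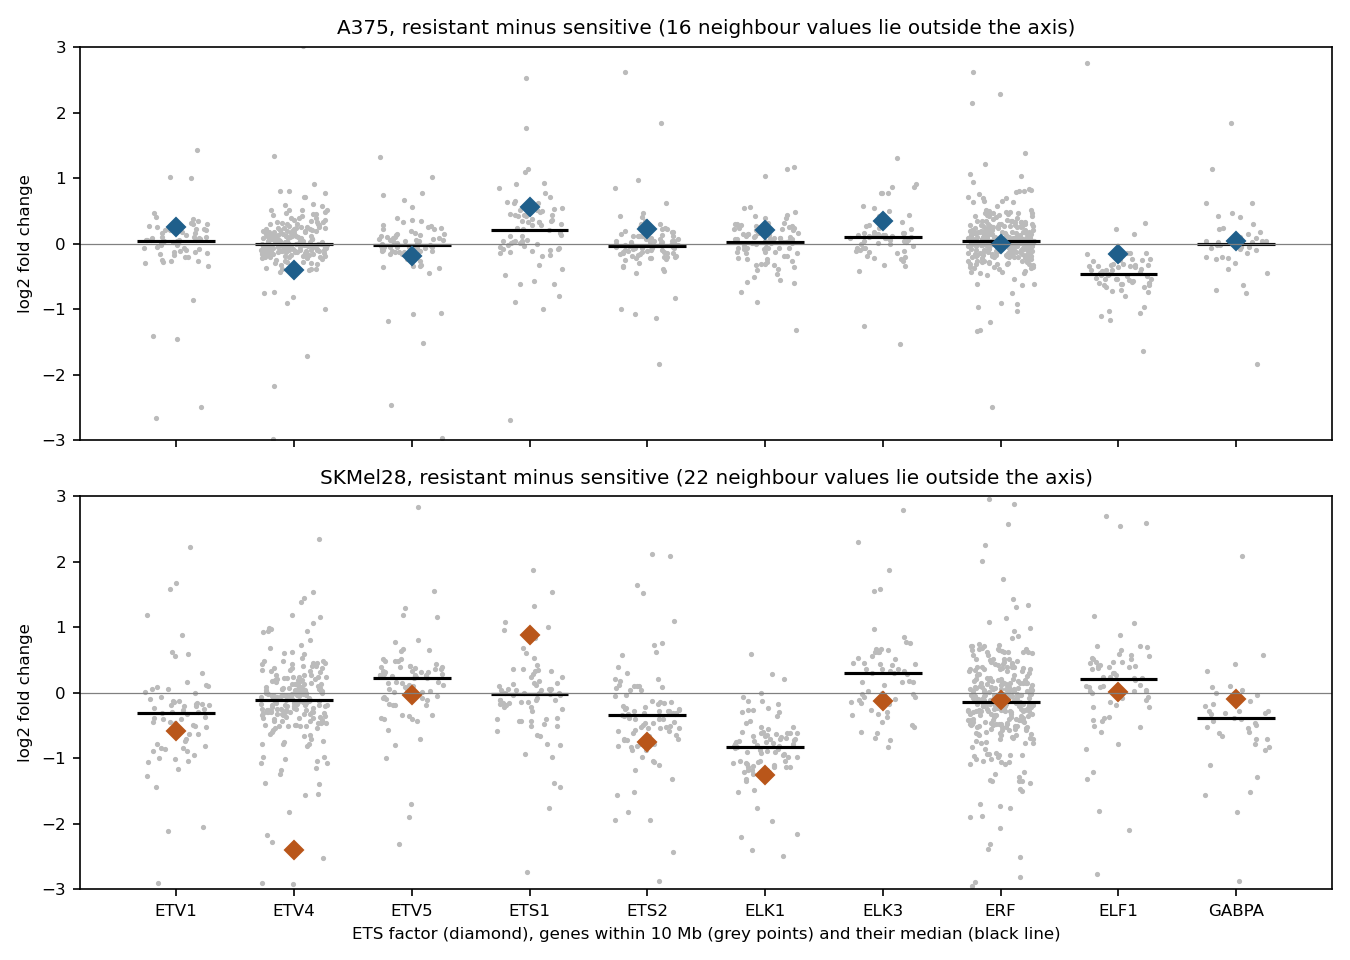
Log2 fold change, resistant minus sensitive, of each ETS factor (diamond), of the tested genes within 10 Mb on the same chromosome (grey) and their median (black line), in A375 (top) and SKMel28 (bottom). In A375 the neighbours' medians lie from -0.04 to 0.21 except around ELF1 (-0.46), in SKMel28 the lowest is that around ELK1 (-0.83), and ETV4 in SKMel28 lies below all but 3.76% of its neighbours.

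The lines differed in their baseline. Between sensitive cells, 4 members were higher and 5 lower in A375 than in SKMel28, where 82.9% of all genes were called (42.4% higher and 40.5% lower). The libraries did not overlap for 9 members and 83.3% of all genes, and 2 members, ETV5 and ELF1, differed by 2-fold or more, as did 40.2% of all genes. Between resistant cells 7 were higher and 3 lower, with 85.3% of all genes called (42.6% higher and 42.7% lower). All 10 were without overlap, as were 86.0% of all genes, and 5 differed by 2-fold or more, as did 46.1% of all genes. ETV5 was 2.76-fold lower in sensitive A375 than in sensitive SKMel28 (-1.47 ± 0.04, edgeR adjusted p = 4.72e-33) and 3.08-fold lower between resistant cells (-1.62 ± 0.04). ELF1 was 2.09-fold lower (-1.06 ± 0.06, edgeR adjusted p = 3.30e-21) and 2.36-fold lower. ETV4 was 1.52-fold higher in A375 between sensitive cells (0.60 ± 0.04, edgeR adjusted p = 1.30e-16) and 6.09-fold higher between resistant cells (2.61 ± 0.05, edgeR adjusted p = 1.02e-37). GABPA was not called between sensitive cells (0.07, edgeR adjusted p = 0.218), except with scaling by library size alone (0.22, edgeR adjusted p = 4.40e-04).

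Ordered by mean CPM over the 4 groups, ETV4 ran from sensitive A375 (178 ± 1.51) through resistant A375 (134 ± 3.12) and sensitive SKMel28 (117 ± 6.24) to resistant SKMel28 (22.0 ± 2.11), with no overlap between neighbours (SD, n = 3). ETS1 ran from resistant SKMel28 (300 ± 9.97) through resistant A375 (191 ± 5.36) and sensitive SKMel28 (163 ± 5.39) to sensitive A375 (131 ± 3.70), again without overlap. ETS2, ELK1 and ELK3 had no overlapping neighbours either, and resistant SKMel28 was the lowest group for each. For ETV1, sensitive A375 (54.8 ± 0.878) and resistant SKMel28 (53.4 ± 2.20) overlapped below resistant A375 (65.1 ± 2.09) and sensitive SKMel28 (79.9 ± 4.25). ETV5 and ELF1 overlapped only between the SKMel28 groups, ERF within each line, and GABPA at every step from 41.1 ± 1.3 to 35.3 ± 1.17 CPM. Per length, ETV4 was the highest of the 10 in sensitive A375 (73.2 CPM per kilobase) and resistant A375 (55.1), ETV5 in sensitive SKMel28 (58.4) and ETS1 in resistant SKMel28 (58.4), where ETV5 stood at 57.0 ± 0.816, within the SD of ETS1.

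Patterns over the 12 libraries were compared by Pearson's r of log2 CPM with 9675 other genes of at least 10 CPM, as a description in which the difference between lines carries much of the likeness. Most like ETV4 were FHOD1 (r = 0.997), TRIM47 (r = 0.997) and COTL1 (r = 0.997). The next for ETS1 were TPM4 (r = 0.995), LRRFIP2 (r = 0.989) and ASPH (r = 0.988). For ETV5 they were HJURP (r = 0.999), FNDC3B (r = 0.999) and FBXO7 (r = 0.999), and for ETV1 NT5E (r = 0.980), CERCAM (r = 0.979) and LPAR3 (r = 0.978).

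The ERK output was taken as 20 genes other than ETS factors, chosen with earlier results of these data known. All 20 fell in SKMel28 (list median -1.36, all genes -0.01), where 35.8% of all genes were called as falls. The phosphatase gene DUSP4 fell from 661 to 192 CPM (-1.78 ± 0.03, edgeR adjusted p = 4.06e-37) and PHLDA1 from 472 to 131 CPM (-1.85 ± 0.03, edgeR adjusted p = 8.33e-38). ETV4 and ETV1 fell there too, while ETV5 was not called and ETS1 rose. In A375, 13 of the 20 rose and 6 fell (list median 0.28, all genes 0), where 25.0% of all genes were called as rises and 26.3% as falls. Among the rises, HMGA2 went from 268 to 510 CPM (0.93 ± 0.03, edgeR adjusted p = 3.83e-26) and DUSP6 from 181 to 309 CPM (0.77 ± 0.04, edgeR adjusted p = 2.88e-22). FOSL1 rose from 416 to 625 CPM (0.59 ± 0.04) and DUSP5 from 46.7 to 89.1 CPM (0.93 ± 0.06, edgeR adjusted p = 7.73e-18). The feedback gene SPRY2 fell from 108 to 62.0 CPM (-0.80 ± 0.05, edgeR adjusted p = 8.04e-19), as did the receptor genes EPHA2 (649 to 493 CPM, -0.40 ± 0.04) and EPHA4 (10.3 to 4.19 CPM, -1.29 ± 0.10). Of the PEA3 genes, ETV4 and ETV5 fell in resistant A375 and ETV1 rose.

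**Figure D5:**
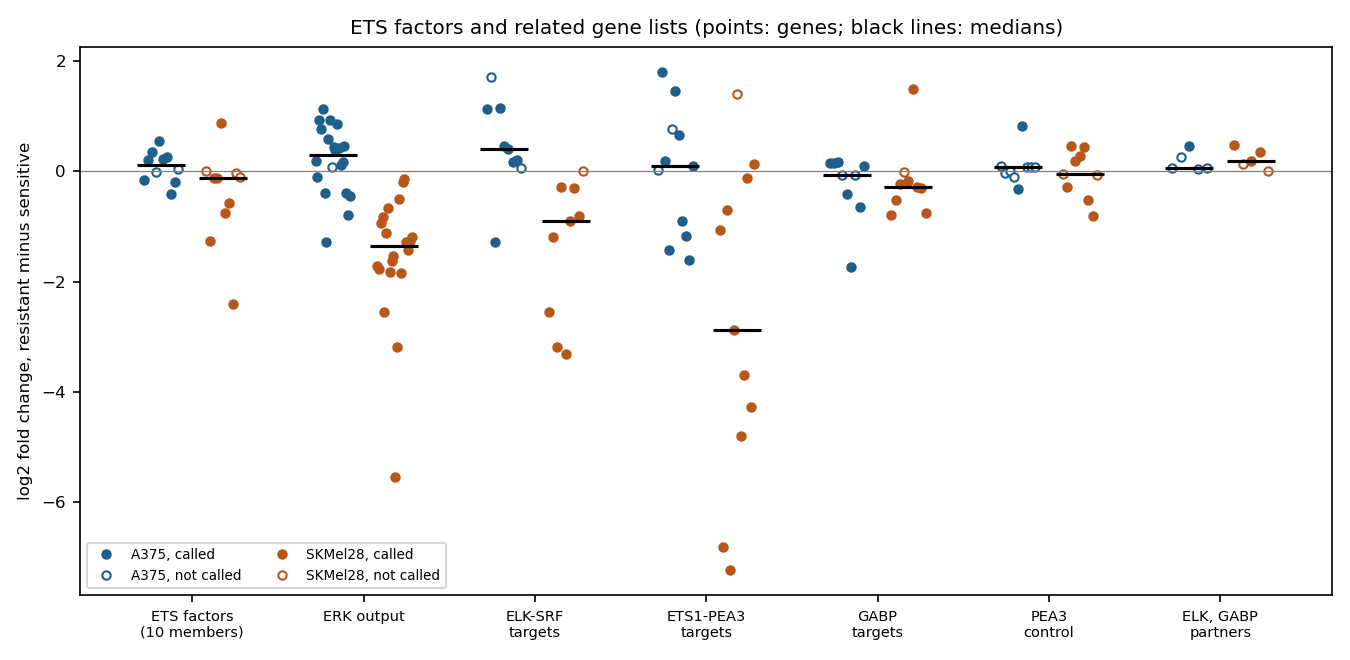
Log2 fold change, resistant minus sensitive, of the 10 ETS factors and of 6 related gene lists in A375 and SKMel28; filled points passed an adjusted p of 0.05 and black lines are medians. The ERK output lies wholly below 0 in SKMel28 (median -1.36) and on both sides of 0 in A375 (median 0.28), while the ETS factors lie on both sides of 0 in both lines.

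Of 18 further ETS family genes, 11 were tested and the other 7 had at most 26 reads over all libraries. In A375, 3 rose (FLI1, ELK4 and SPIB) and 3 fell (ETV3, ELF3 and EHF), with SPIB at 77 and ELF3 at 58 reads over all libraries. In SKMel28, 2 rose (ELF2 and ELF4) and 3 fell (ERG, ETV3 and EHF). Setting genes without reads in a group at 3 reads over that group, the median was -0.02 over the 10 genes with reads in A375 and -0.59 over the 9 in SKMel28. The related genes FLI1 and ERG each had reads in a single line. FLI1 was at 12.4 ± 0.791 CPM in sensitive and 20.2 ± 1.42 CPM in resistant A375 (0.71 ± 0.10 SE, edgeR adjusted p = 1.89e-07; SD, n = 3) and had no read in any SKMel28 library, at least 373-fold higher in sensitive A375 and at least 665-fold higher in resistant A375 with that floor. ERG had no read in A375 and went from 5.19 ± 0.747 to 1.62 ± 0.476 CPM in SKMel28 (-1.68 ± 0.24, edgeR adjusted p = 9.18e-08). ELK4, the third ternary complex factor, rose in A375 from 86.3 to 111 CPM (0.36 ± 0.04, edgeR adjusted p = 4.92e-09) and was at 53.8 and 54.8 CPM in SKMel28 (edgeR adjusted p = 0.63). The repressor ETV3 fell in SKMel28 from 35.0 to 14.5 CPM (-1.27 ± 0.10) and in A375 from 19.2 to 16.1 CPM (-0.26 ± 0.10, edgeR adjusted p = 0.0282). The epithelial factor EHF went from 1.78 to 0.187 CPM in A375 (-3.23 ± 0.41) and from 1.17 CPM to no read in SKMel28, at least 38.5-fold lower.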

How the data were processed

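Poly(A)-selected RNA of 12 libraries was sequenced in paired reads of 150 bases, per the labels' protocols. The authors' deposited files, 1 per library, list read counts by gene symbol with no normalization, used here without the 5 htseq-count style summary lines (15.1% to 19.5% of counted reads were not assigned to a gene). HISAT2, StringTie and GRCh38.p12 are named in the submitters' processing notes, while the deposited files' names point to STAR, untrimmed reads and unstranded counting on hg38, so which aligner made the counts is not settled.

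Counts were filtered with filterByExpr, scaled by TMM and fitted with edgeR 4.0.16 under R 4.3.3, by robust quasi-likelihood on 4 group means (8 residual degrees of freedom). Tests were two-sided, adjusted by Benjamini-Hochberg over 15506 genes, and called below 0.05. CPM uses TMM-scaled library sizes. Members and lists (11 lists, 90 genes, ETS factors included) were chosen with earlier results of these data known. The text names all members, list genes among those called or on which a sentence turns, and the 3 genes most like ETV1, ETV4, ETV5 and ETS1. Positions and transcript lengths came from GENCODE release 29 (93.9% of tested genes matched). Windows of 10 Mb stood in for the chromosome arms first planned, since no table of arms was used. A gene with no read in a group was set at 3 reads over that group. This floor reflects counting error alone, and without molecular identifiers a read is not an independent molecule. Between replicates, the chi-square statistic divided by its degrees of freedom was 2.81 to 7.45, so no pair agreed within sampling noise.

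The test was checked on simulated counts for the A375 comparison. Of 50 genes at each size, edgeR recovered 29 changed 1.25-fold, 46 changed 1.5-fold, 49 changed 2-fold and 50 changed 4-fold, with 16 false calls among 15408 genes. For the difference between lines it recovered fewer, 24, 37, 43 and 45 of 50 at the same sizes, with 9 false calls. The simulation changed only these genes and none in SKMel28. In the data 51.3% of all genes were called in A375 and 70.0% in SKMel28, so the rates of recovery and false calls may differ there. Alternatives were DESeq2 1.42.0, its size factors in edgeR, library size alone, no filter, a replicate block, each line fitted alone and each library left out.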

Additional observations from a re-analysis of the deposited data

Results flagged for a closer look

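The resistant-minus-sensitive change differed between A375 and SKMel28, by the test of the difference itself, for 7 of the 10 ETS factors, where 63.8% of all genes differed. The differences (A375 minus SKMel28, log2 scale) were 2.0 for ETV4, 1.46 for ELK1, 0.97 for ETS2, 0.83 for ETV1 and 0.49 for ELK3, and -0.34 for ETS1 and -0.16 for ETV5. ETV1, ETS2, ELK1 and ELK3 changed in opposite directions, with all 3 resistant libraries above the sensitive ones in A375 and all 3 below in SKMel28. Groups of 3 libraries are too small for a check of single outlying samples.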

How the results depend on the processing

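No ETS factor changed direction in any call under the alternatives run. The number called stayed at 7 or 8 in A375, 7 or 8 in SKMel28, 7 or 8 for the difference between lines, 9 or 10 between sensitive cells and 10 between resistant cells over the settings that kept all libraries, and at 7 to 8, 6 to 7, 7 to 8, 9 and 10 with any library left out. Of 270 single values under settings with all libraries, 259 kept their side of the threshold, 5 lost a call and 6 gained one. Of 360 with a library left out, 349 kept it, 7 lost a call and 4 gained one. These changes concern ELF1, ERF, GABPA and ETV5. With library size alone GABPA was called lower in SKMel28 (-0.13, edgeR adjusted p = 0.0353) and different between lines (0.21, edgeR adjusted p = 0.0232), and ERF differed between lines with library size alone (0.17, edgeR adjusted p = 0.0112) and with DESeq2 size factors (0.14, edgeR adjusted p = 0.0452). Library size alone moved the median of all genes by 0.15 between sensitive and 0.21 between resistant cells of the lines, and by at most 0.06 in the other comparisons.

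Correlations of residuals did not settle whether replicate numbers pair the libraries. Same-number values were 0.0102 to 0.0344 in A375 and 0.13, -0.00468 and 0.0984 in SKMel28. Not every library correlated best with its own number, and groups of 3 libraries are too small to exclude a pairing. With replicate number as a block, 8 members were called in A375, 7 in SKMel28 and 8 for the difference between lines, where ELF1 gained a call (-0.17, edgeR adjusted p = 0.0474), and all genes called numbered 8077 and 10896 against 7959 and 10854. At 29.8 reads or more per CPM, depth limited genes near 1 CPM such as EHF and TERT more than the members.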
